A study of Mus musculus with 6 samples.

Results

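The 10 genes described here encode 5 ligands (Gdnf, Kitl, Fgf2, Fgf9 and Csf1) and 5 receptors (Gfra1, Ret, Kit, Fgfr1 and Fgfr3) through which somatic cells of the testis and spermatogonia communicate. They were chosen by symbol from a deposited table of 55331 genes, of which 22048 had been tested. Each had 1 row and all 10 had been tested. The RNA was polyadenylated RNA of whole testes from mice of mixed strain aged 35 days. The 3 Ptbp1_cKO libraries came from mice with the genotype Ptbp1fl/fl; Amh-Cre+/-, and the 3 control libraries from Ptbp1fl/fl mice, so both groups carried floxed alleles of Ptbp1, which encodes a splicing regulator that binds RNA. The Amh-Cre transgene drives recombination in Sertoli cells, which nourish the germ cells, and the study asked what PTBP1 does there. No library came from mice with Amh-Cre and unfloxed Ptbp1, so an effect of the deletion and an effect of the transgene cannot be told apart. Whether the libraries of a group came from separate animals is not in the labels, so p-values speak for these libraries.

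Spermatogonial stem cells depend on ligands from their surroundings. GDNF, secreted by Sertoli and peritubular myoid cells, binds the co-receptor GFRA1, and the pair activates the kinase RET, which sustains self-renewal. KIT ligand, encoded by Kitl and made by Sertoli cells, acts on the receptor kinase KIT of differentiating spermatogonia, and KIT is also found on Leydig cells and mast cells. FGF2 and FGF9 signal through FGF receptor kinases and add to maintenance of the stem cells. CSF1, a cytokine of macrophages made in the testis by Leydig and some myoid cells, also supports them.

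Levels are given as FPKM, fragment counts scaled by transcript length and library depth, with 1 value per group that the authors obtained from its 3 libraries. No values per library were used, so a spread between libraries could not be computed here. Groups are compared by Cuffdiff's test as the authors deposited it, called at q under 0.05. How that test treated the spread between libraries is not given in the sources used here. Steps in the low FPKM values corresponded to 65200000 to 72000000 fragments per Ptbp1_cKO library and 66400000 to 86900000 per control library, on Cuffdiff's normalised scale. One FPKM over an effective length of 1 kb thus rested on about 204 fragments in the Ptbp1_cKO group and 226 in the control group. Ptbp1 itself stood at 46.7 FPKM in Ptbp1_cKO and 49.97 FPKM in control, and the authors' deposited table gave q = 0.999. A whole-testis value at gene level shows neither the loss of an exon nor a change within Sertoli cells alone, so it checks no label.

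Of the 10 genes, Kit alone passed the threshold, at 1.52 times the control level. Ret and Csf1 stood at 1.55 and 1.44 times the control level with unadjusted p under 0.05 and q above the threshold, and Kitl was at 1.01 times. In all, 9 of the 10 had a higher FPKM in Ptbp1_cKO and Fgf9 a lower one, against 50.9% of all tested genes higher. Their median log2 fold change was 0.24, beside 0.005 over all tested genes. On the log2(FPKM + 1) scale, which understates the change of low genes, the median difference was 0.11, beside 0.004 over all tested genes. One gene in 10 was called higher and 0 lower, where the background was 0.458% of tested genes called higher, 0.703% called lower and 1.16% called in either direction. At an unadjusted p under 0.05, 3 of the 10 were higher, against 4.38% of tested genes higher and 8.98% in either direction. Receptors had log2 fold changes of 0.15 to 0.63, all 5 above 0, and ligands of -0.30 to 0.53, with 4 of 5 above 0. Whether receptors and ligands differed was not tested.

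**Figure D1:**
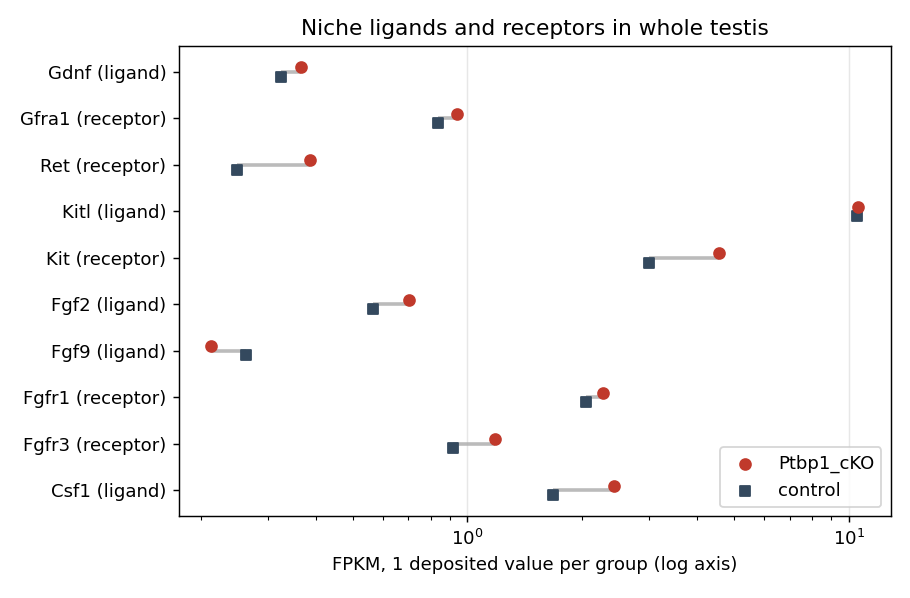
FPKM of each niche gene on a log axis, with 1 point per group (circles Ptbp1_cKO, squares control) and no error, since 1 value per group was used. Kit, Ret and Csf1 show the widest gaps to the right, Kitl lies at about 10.6 FPKM in Ptbp1_cKO and 10.5 FPKM in control, and Fgf9 alone is lower in Ptbp1_cKO.

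The genes covered a wide range of levels. In Ptbp1_cKO the order from high to low was Kitl, Kit, Csf1, Fgfr1, Fgfr3, Gfra1, Fgf2, Ret, Gdnf and Fgf9. In control it was Kitl, Kit, Fgfr1, Csf1, Fgfr3, Gfra1, Fgf2, Gdnf, Fgf9 and Ret. Without values per library, neighbours in either order could not be tested. Kitl lay above 66.9% of tested genes in Ptbp1_cKO and 66.8% in control, and Fgf9 above 7.31% in Ptbp1_cKO and 10.6% in control. Gdnf, Gfra1, Ret, Fgf2 and Fgf9 stayed under 1 FPKM in both groups, where the median tested gene stood at 3.82 FPKM in Ptbp1_cKO and 3.71 FPKM in control.

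Kit (ENSMUSG00000005672.12, chromosome 5, 75574916 to 75656722, plus strand, mm10), the receptor tyrosine kinase of differentiating spermatogonia, had 4.57 FPKM in Ptbp1_cKO and 3.001 FPKM in control. The log2 fold change was 0.61, for which the authors' deposited table gave q = 0.00848, shared by the 130 genes at the table's smallest p of 5e-05. Among the 101 genes called higher, Kit was number 60 by fold change, and the median log2 fold change of those genes was 0.68. If all fragments came from the longest coding transcript (5241 bases, 21 exons), about 4641 fragments in Ptbp1_cKO and 3380 in control lay behind the values, and the 95% exact interval of the fold was 1.46 to 1.59. This interval covers counting error only and says nothing of the spread between animals. The call depended on how p was obtained. From the deposited test statistic of 2.22 under a normal distribution, p was 0.0266 and, adjusted over all tested genes, 0.9999; 0.0862% of tested genes passed that way, and 0 of the 10. Of the 22048 tested genes, 173 had a statistic at least as far from 0 as that of Kit. That is fewer than a normal distribution gives at a p of 0.0266, so the normal p ran too high over all tested genes. At q under 0.1, passed by 1.91% of tested genes, and among genes with at least 1 FPKM in a group, of which 1.61% passed, Kit was again alone among the 10. A shorter KIT made from an internal start is known in mouse spermatids, and a value per gene does not separate it from the full-length receptor.

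Kitl (chromosome 10, 100015630 to 100100416), the ligand of KIT, had 10.6 FPKM in Ptbp1_cKO and 10.5 FPKM in control, and the authors' deposited table gave q = 0.999. At up to 11619 fragments in Ptbp1_cKO and 12822 in control, the counting interval of the fold was 0.981 to 1.03. The ligand thus stood within a few percent of its control level where its receptor was higher. The Kitl to Kit ratio of FPKM was 2.31 in Ptbp1_cKO and 3.51 in control. Alternative splicing of Kitl yields a membrane-bound and a readily shed form, which a gene-level value leaves unmeasured.

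The sequences before the start sites of Kit, Gdnf and Csf1 are shown because Kit was the called gene, Gdnf is the best-known stem cell ligand and Csf1 had the highest fold change of the ligands. They come from the 250 bases before the first start listed by RefSeq (GRCm38.p6, the same assembly as mm10). GENCODE places some starts elsewhere, so only bases before its first start of the gene are printed. For Kit that leaves 179 bases at chr5:75574737-75574915, since the last 71 lie inside the GENCODE gene. All 250 bases remain for Gdnf, at chr15:7809798-7810047, and for Csf1, at chr3:107760470-107760719; Kit and Gdnf lie on the plus strand and Csf1 on the minus strand. For Kitl, 191 of the 250 bases lie inside the GENCODE gene, so its window is not shown. Capitals mark matches on either strand to 4 short motifs, the GC box GGGCGG, the E-box CANNTG, the TATA box TATAAA and the core TGACG of the cAMP response element.
Kit: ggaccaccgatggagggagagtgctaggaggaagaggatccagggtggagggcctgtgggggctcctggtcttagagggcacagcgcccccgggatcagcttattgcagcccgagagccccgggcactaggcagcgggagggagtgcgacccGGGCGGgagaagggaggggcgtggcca
Gdnf: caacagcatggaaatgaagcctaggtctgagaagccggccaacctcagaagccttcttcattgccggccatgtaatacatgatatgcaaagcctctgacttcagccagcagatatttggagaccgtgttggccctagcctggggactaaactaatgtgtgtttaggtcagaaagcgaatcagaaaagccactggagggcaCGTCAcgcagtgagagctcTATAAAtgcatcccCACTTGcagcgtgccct
Csf1: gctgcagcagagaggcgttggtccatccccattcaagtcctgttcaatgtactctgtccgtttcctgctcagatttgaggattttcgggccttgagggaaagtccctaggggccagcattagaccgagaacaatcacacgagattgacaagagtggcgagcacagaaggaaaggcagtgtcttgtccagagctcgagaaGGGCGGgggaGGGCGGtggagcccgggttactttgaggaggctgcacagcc
The Kit stretch held 1 GC box and none of the other motifs, at 69.3% G and C. In the Gdnf window 1 cAMP element core, 1 TATA box and 1 E-box lay at 50.8% G and C. The Csf1 window held 2 GC boxes and none of the other motifs, at 56.4% G and C. Of the first-listed windows of 27025 genes, 32.9% held a GC box, 66.0% an E-box, 13.0% a TATA box and 17.9% that core, and a GC box lay in the first 179 bases of 20.7%. A match describes the letters and is not a site shown to be bound. RefSeq windows were matched for 8 of the 10 genes.

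Genes related to Kit gave no call, where 1.16% of all tested genes were called, so 0 calls in short lists says little. Among 10 other class III receptor kinases and their ligands, 0 passed Cuffdiff's threshold and 1 had an unadjusted p under 0.05 (median log2 fold change 0.08). That gene, Pdgfra, a receptor for platelet-derived growth factor, had 4.03 FPKM in Ptbp1_cKO and 3.15 FPKM in control (unadjusted p = 0.00655 and q = 0.209 by the authors' deposited table). The most abundant of them, the ligand gene Pdgfa, stood at 9.61 FPKM in Ptbp1_cKO and 10.6 FPKM in control. Of 18 signalling genes downstream of KIT, 9 had a higher and 9 a lower FPKM, and by Cuffdiff's test 0 passed the threshold and 0 had an unadjusted p under 0.05. Their median log2 fold change was 0.04, and the kinase gene Akt2, the most abundant, had 52.9 FPKM in Ptbp1_cKO and 43.9 FPKM in control.

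Markers of the cells that carry KIT did not share one sign. In bulk RNA, fewer cells of a type and less RNA per cell cannot be told apart. As background to the counts below, 1.16% of all tested genes were called and 8.98% had an unadjusted p under 0.05 in Cuffdiff's test. Of 10 genes listed for differentiating spermatogonia 1 was called, the ubiquitin hydrolase gene Uchl1. It was higher at 54.7 FPKM in Ptbp1_cKO and 40.3 FPKM in control (q = 0.0420 in the authors' deposited table). Whether Uchl1 is particular to these cells was not tested. The other 9 did not pass, and the highest of them was Ccnd2 at a log2 fold change of 0.24. The list's median log2 fold change was -0.08 and its highest, that of Uchl1, 0.44, against 0.61 for Kit. Its summed FPKM was 1298 in Ptbp1_cKO and 1378 in control, most of it from Dmrtb1 at 1191 FPKM in Ptbp1_cKO and 1284 FPKM in control. Dmrtb1 stood above every listed spermatocyte marker, of which Syce1 was highest at 281.4 FPKM in Ptbp1_cKO and 308.2 FPKM in control. Whether Dmrtb1, and so the sum, stands for differentiating spermatogonia was not tested. Of 10 Leydig cell markers 1 was called, the hormone gene Insl3, at 1049 FPKM in Ptbp1_cKO and 749.6 FPKM in control (q = 0.00848 in the authors' deposited table). The Leydig median was -0.04, 5 markers were higher and 5 lower in FPKM, and 4 of the higher and 1 of the lower ones had an unadjusted p under 0.05. The Leydig sum was 1462 FPKM in Ptbp1_cKO and 1193 FPKM in control. Mast cell markers were near 0, with 2 of 8 tested and neither called. Cpa3, a mast cell protease, had 0.219 FPKM in Ptbp1_cKO and 0.333 FPKM in control, and Fcer1a had 0.00890 FPKM in Ptbp1_cKO and was listed at 0 in control. Their sum of 8.53 FPKM in Ptbp1_cKO and 8.47 FPKM in control lay almost wholly in Hdc, the histamine-forming enzyme, at 8.18 and 8.01 FPKM in these groups. The part of these cells in the level of Kit was not tested.

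**Figure D2:**
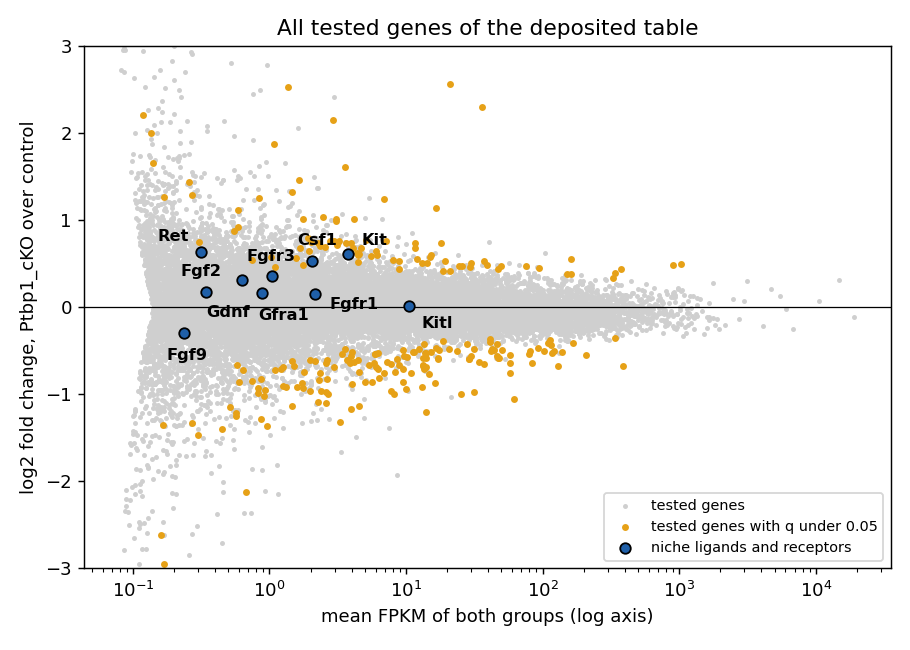
log2 fold change of Ptbp1_cKO over control against the mean FPKM of both groups (log axis) for 21986 tested genes, with genes at q under 0.05 in orange and the 10 niche genes in blue. Beyond the axes lie 62 tested genes, 15 of them at q under 0.05, which are not drawn. Kit lies at the edge of the cloud among called genes, and Ret and Csf1 lie at a like height without a call.

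The GDNF axis was expressed at low levels and gave no call. Gdnf (ENSMUSG00000022144.4, chromosome 15, 7810846 to 7837575), the self-renewal ligand, had 0.365 FPKM in Ptbp1_cKO and 0.324 FPKM in control, and the authors' deposited table gave q = 0.999. Its only GENCODE transcript has 3674 bases, for which about 254 fragments in Ptbp1_cKO and 250 in control lay behind the values. The fold of 1.13 had a counting interval of 0.944 to 1.35, so this fold could not be told from 1 on counting error alone. Gfra1 (chromosome 19, 58235604 to 58455909), the co-receptor that marks the most primitive spermatogonia, had 0.938 FPKM in Ptbp1_cKO and 0.836 FPKM in control (log2 fold change 0.17, q = 0.999 in the authors' deposited table). The ratio of Gdnf to Gfra1 in FPKM was 0.389 in Ptbp1_cKO and 0.388 in control.

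Ret (ENSMUSG00000030110.13, chromosome 6, 118151745 to 118197718, minus strand), the signalling kinase of the GDNF receptor, had 0.385 FPKM in Ptbp1_cKO and 0.249 FPKM in control. Its log2 fold change of 0.63 was the highest of the 10 genes, at unadjusted p = 0.00510 and q = 0.180 by the authors' deposited table, so it did not pass. About 408 fragments in Ptbp1_cKO and 292 in control lay behind it if all came from the longer of its coding transcripts (5456 and 4497 bases), with a counting interval of the fold of 1.33 to 1.81. The ratio of Gfra1 to Ret in FPKM was 2.43 in Ptbp1_cKO and 3.36 in control. On the log2(FPKM + 1) scale the difference was 0.15 for Ret and 0.48 for Kit.

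Other genes of the GDNF system showed no calls, beside 1.16% of all tested genes called, so 0 calls among so few says little. Of 8 further ligands and receptors of the family 5 were tested and 0 were called, with 0 at an unadjusted p under 0.05 in Cuffdiff's test and a median log2 fold change of 0.04. Gfra2, the neurturin co-receptor, was the most abundant, at 15.8 FPKM in Ptbp1_cKO and 14.5 FPKM in control. Of 7 spermatogonial regulators known to respond to GDNF 5 were tested and 0 were called by Cuffdiff, with 1 at an unadjusted p under 0.05. That gene, the homeobox gene Lhx1, had 2.32 FPKM in Ptbp1_cKO and 1.36 FPKM in control (log2 fold change 0.77, unadjusted p = 0.0039 and q = 0.152 by the authors' deposited table). The ETS factor gene Etv5 stood at 5.92 FPKM in Ptbp1_cKO and 5.18 FPKM in control, Bcl6b at 0.959 FPKM in Ptbp1_cKO and 1.12 FPKM in control, and Id4, the most abundant, at 21.9 FPKM in Ptbp1_cKO and 23.8 FPKM in control. Of 19 markers of undifferentiated spermatogonia 17 were tested and 0 were called; 10 had a higher and 7 a lower FPKM, with a median log2 fold change of 0.19. Their summed FPKM was 46.9 in Ptbp1_cKO and 46.5 in control, and the largest part of it came from Id4, which was lower in Ptbp1_cKO. At an unadjusted p under 0.05 in Cuffdiff's test, 2 were higher and 1 lower.

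**Figure D3:**
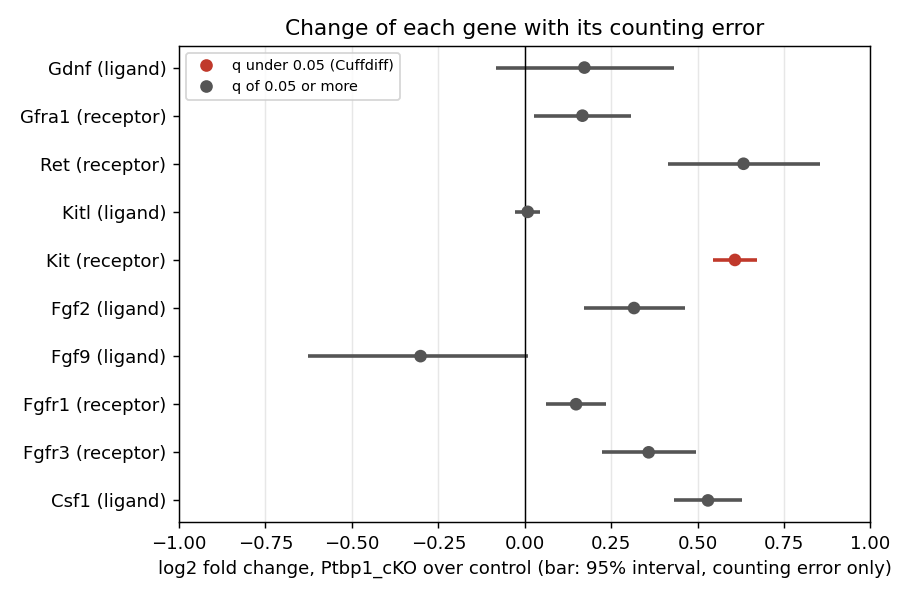
log2 fold change of Ptbp1_cKO over control for each niche gene, with the 95% interval from counting error alone if all fragments came from the longest coding transcript, so the bars are the shortest possible. Red marks the gene at q under 0.05. The bars of Gdnf, Kitl and Fgf9 cross 0, and those of Kit, Ret and Csf1 lie above 0.4.

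The FGF ligands were low and gave no call. Fgf2 (chromosome 3, 37348346 to 37410108), a heparin-binding growth factor used to grow spermatogonial stem cells in culture, had 0.702 FPKM in Ptbp1_cKO and 0.564 FPKM in control. Its log2 fold change of 0.32 came with a test statistic of 0.05 and, by the authors' deposited table, q = 0.999. Exons of Fgf2 overlap Nudt6 on the opposite strand, which stood at 2.50 FPKM in Ptbp1_cKO and 2.604 FPKM in control. The libraries were stranded, but whether strand was used in counting is not given in the sources used here, so reads of these genes may not be separated. Fgf9 (chromosome 14, 58070547 to 58112720), which promotes Sertoli cell fate in the fetal gonad and acts on germ cells, was the least abundant of the 10 genes in Ptbp1_cKO, with 0.213 FPKM there and 0.262 FPKM in control. The log2 fold change was -0.30, for which the authors' deposited table gave q = 0.999, and at up to 144 fragments in Ptbp1_cKO and 198 in control the counting interval of the fold was 0.647 to 1.01.

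Both FGF receptors were more abundant than these ligands. Fgfr1 (chromosome 8, 25513654 to 25575718) had 2.27 FPKM in Ptbp1_cKO and 2.05 FPKM in control, a log2 fold change of 0.15, for which the authors' deposited table gave q = 0.999. Fgfr3 (chromosome 5, 33721674 to 33737068), a receptor found on spermatogonia, had 1.18 FPKM in Ptbp1_cKO and 0.919 FPKM in control, a log2 fold change of 0.36, for which the authors' deposited table gave q = 0.980. Fgfr1, Fgfr3 and Gfra1 each share exon sequence with an opposite-strand gene that was also tested, Gm16159 at 12.4 FPKM in Ptbp1_cKO and 11.9 FPKM in control, G630022F23Rik at 0.539 and 0.445 FPKM, and Gm16277 at 1.08 and 0.938 FPKM in these groups, so the same limit on strand holds for them. FGF receptor transcripts are known for alternative exons that change ligand binding, and a value per gene does not show exon use.

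Of 20 other FGF genes 11 were tested. By Cuffdiff 0 were called, beside 1.16% of all tested genes, and 0 had an unadjusted p under 0.05. Of the 11, 8 had a lower FPKM (median log2 fold change -0.12). Fgf12, an FGF that acts inside the cell on sodium channels, was the most abundant at 3.74 FPKM in Ptbp1_cKO and 3.39 FPKM in control. Among 5 other FGF receptor and klotho genes, 0 were called and 0 had an unadjusted p under 0.05 in Cuffdiff's test. Fgfrl1, a receptor without a kinase domain, had 11.5 FPKM in Ptbp1_cKO and 8.60 FPKM in control (q = 0.637 in the authors' deposited table). Of 15 feedback inhibitors, targets and adaptors (Frs2 and Frs3) of FGF and ERK signalling 14 had a row and were tested. By Cuffdiff 0 of the 14 were called, and 2 were higher and 2 lower at an unadjusted p under 0.05. Their median log2 fold change was 0.14. The most abundant was Spred3, at 13.5 FPKM in Ptbp1_cKO and 11.2 FPKM in control. The higher ones at that p were Spred1 (1.76 FPKM in Ptbp1_cKO, 1.41 FPKM in control) and Dusp5 (5.10 FPKM in Ptbp1_cKO, 4.11 FPKM in control). The lower ones at that p were Dusp4 (7.27 FPKM in Ptbp1_cKO, 8.99 FPKM in control) and Il17rd (1.33 FPKM in Ptbp1_cKO, 1.71 FPKM in control). These 4 genes inhibit the ERK cascade or its kinases, and they did not share a sign.

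Csf1 (ENSMUSG00000014599.10, chromosome 3, 107741048 to 107760469, minus strand), the macrophage cytokine, had 2.42 FPKM in Ptbp1_cKO and 1.68 FPKM in control. The log2 fold change was 0.53, at unadjusted p = 0.0124 and q = 0.296 by the authors' deposited table, so it did not pass. At up to 1932 fragments in Ptbp1_cKO and 1486 in control the counting interval of the fold was 1.35 to 1.55. Its receptor gene Csf1r, a marker of macrophages, had 7.23 FPKM in Ptbp1_cKO and 4.94 FPKM in control, a log2 fold change of 0.55, for which the authors' deposited table gave q = 0.999. The ratio of Csf1 to Csf1r in FPKM was 0.335 in Ptbp1_cKO and 0.340 in control. Macrophage markers stood higher beside it, with 10 of 11 above control in FPKM and a sum of 68.3 FPKM in Ptbp1_cKO and 54.7 FPKM in control. Their median log2 fold change was 0.36, and at an unadjusted p under 0.05 in Cuffdiff's test 5 were higher and 1 lower. The lower one, Mrc1, a mannose receptor, had 6.73 FPKM in Ptbp1_cKO and 8.33 FPKM in control. Of the 11, 1 was called, the complement gene C1qb, higher at 16.8 FPKM in Ptbp1_cKO and 11.8 FPKM in control (q = 0.0202 in the authors' deposited table). The part of macrophages in the level of Csf1 was not tested.

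Lists of Sertoli, myoid, stromal and endothelial markers stood higher in FPKM. Of 16 Sertoli cell markers 15 had a higher FPKM, with a median log2 fold change of 0.20 beside 0.01 for Kitl and 0.17 for Gdnf. At an unadjusted p under 0.05 in Cuffdiff's test 4 were higher and 1 lower, where 8.98% of all tested genes had such a p. The 1 called was Clu, a secreted chaperone, higher at 1199 FPKM in Ptbp1_cKO and 853.6 FPKM in control (q = 0.00848 in the authors' deposited table). Of 7 myoid markers 6 were higher in FPKM and 0 called by Cuffdiff, with 0 at an unadjusted p under 0.05, a median of 0.18, and Actg2 at 154.4 FPKM in Ptbp1_cKO and 136.5 FPKM in control. All 6 stromal markers were higher in FPKM (median 0.37), 4 of them at an unadjusted p under 0.05, and 2 were called, the proteoglycan gene Dcn (35.4 FPKM in Ptbp1_cKO, 24.8 FPKM in control) and the collagen gene Col1a1 (2.49 FPKM in Ptbp1_cKO, 1.70 FPKM in control). Sparc, the most abundant of them, had 163.5 FPKM in Ptbp1_cKO and 132.0 FPKM in control. Of 7 endothelial markers 6 were higher in FPKM and 0 called, with 1 at an unadjusted p under 0.05 in Cuffdiff's test, a median of 0.15, and Egfl7 at 4.57 FPKM in Ptbp1_cKO and 3.86 FPKM in control. The germ cell lists that follow spermatogonia had medians below 0, at -0.11 over 8 spermatocyte markers (Syce1 281.4 FPKM in Ptbp1_cKO, 308.2 FPKM in control) and -0.03 over 11 spermatid markers (Tnp1 18244 FPKM in Ptbp1_cKO, 19773 FPKM in control). In both lists 0 were called by Cuffdiff, beside 1.16% of all tested genes. At an unadjusted p under 0.05 in Cuffdiff's test the spermatocyte list had 0 genes, and the spermatid list 2 higher and 2 lower. Of the spermatocyte markers 1 was higher and 7 lower in FPKM, and of the spermatid markers 5 were higher and 6 lower. The spermatocyte sum was 810.1 FPKM in Ptbp1_cKO and 886.8 FPKM in control. The spermatid sum was 49632 FPKM in Ptbp1_cKO and 47096 FPKM in control, higher although the median was below 0. Whether these levels account for those of the niche genes was not tested.

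**Figure D4:**
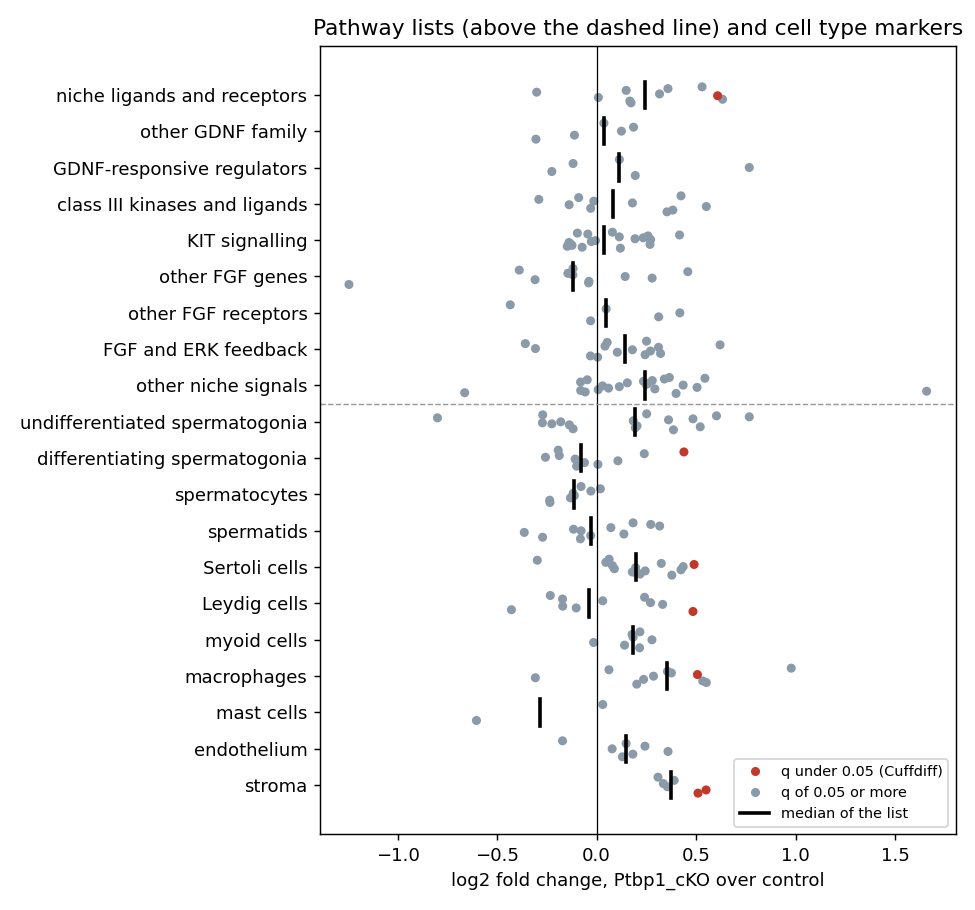
log2 fold change of Ptbp1_cKO over control for every tested gene of each list (points, red at q under 0.05) with the median of the list (black bar); epididymal markers are not drawn. Kit lies to the right of all markers of differentiating spermatogonia and of Leydig cells, and stromal markers all lie above 0.3.

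Among 24 other ligands and receptors of the niche 22 were tested and 0 passed Cuffdiff's threshold, beside 1.16% of all tested genes. In FPKM 17 were higher and 5 lower, and 4 were higher and 1 lower at an unadjusted p under 0.05 in Cuffdiff's test. The median log2 fold change was 0.24, the same as that of the 10 genes to 2 decimals. The most abundant, the LIF receptor gene Lifr, had 7.84 FPKM in Ptbp1_cKO and 6.59 FPKM in control. A pattern over samples like that of Kit could not be sought in other genes, since each has 1 value per group.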

How the data were processed

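Groups were taken from the library titles. Per the submitters' processing notes, the build was mm10 and the tools were Cuffdiff, Cufflinks, STAR 2.6.1d, Trimmomatic 0.38 and bcl2fastq 2.20, with no role or setting. Neither the Cuffdiff version nor the annotation is given in the sources used here. The deposited table holds, per the file headers, the FPKM of each group, the log2 fold change (Ptbp1_cKO over control), a test statistic, which is a signed score, and Cuffdiff's p-value and q-value. Deposited log2 values equalled the log2 ratio of the FPKM values within 1.37e-05, and the deposited q was the Benjamini-Hochberg adjusted p within 5.20e-07. FPKM values of a group are the authors' own, printed without SD.

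Rows were chosen by symbol. The 10 genes, the lists and the tests were chosen with earlier results of these data known, so none is independent evidence. Outside the 10 genes, the text names Ptbp1, each list's called genes and its most abundant tested gene; all others were chosen after their values were seen. List medians took genes with at least 0.1 FPKM in a group and are of the deposited log2 fold change unless log2(FPKM + 1), the planned measure, is named; no list median differed in sign between these. Positions are from GENCODE M21, whose versioned identifiers matched 98.6% of the table. No near-identical copy of the 10 genes was found with BLAST 2.17.0 at 95% identity over 80% of the longest coding transcript.

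Fragment weights were fitted to single-exon genes of 1500 to 6000 bp, after a length deduction of 266 bp in Ptbp1_cKO and 262 bp in control; 96.7% of 272 and 88.8% of 250 one-fragment values in these groups lay within 0.1% of 1 of 3 steps. Counting intervals of folds are exact (Clopper-Pearson) at 95%. The step fit and the adjustment of p were run on simulated data, which does not bear on whether the statistic is normal. Alternatives were the normal p from the statistic, a minimum of 1 FPKM, q under 0.1, centring on the median gene and a pseudocount of 0.1 in place of 1. Scripts used Python 3.11.15, pandas 2.3.3 and scipy 1.17.1.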

Additional observations from a re-analysis of the deposited data

How the results depend on the processing

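With the normal p from the test statistic 0 of the 10 genes passed in place of Kit alone, and 19 genes passed over all in place of 256. The deposited p is not the normal p of that statistic, which ran too high over all tested genes. How the deposited p was made was not tested. A threshold of q under 0.1 gave 421 genes over all, with Kit still alone among the 10. With a minimum of 1 FPKM, 255 genes passed, and Kit had q = 0.00647. Centring on the median of genes with at least 1 FPKM in a group (log2 fold change -0.005) or another pseudocount turned no sign among the 10 genes. On the log2 scale with a pseudocount of 0.1 in place of 1, the median difference of the 10 genes was 0.21 in place of 0.11. Among the other lists 3 medians moved by more than 0.1 with it, to 0.21 (0.09 with 1) for other niche signals, -0.20 (-0.05 with 1) for mast cells and 2.06 (0.40 with 1) for epididymis; the cause was not tested. No paired analysis was possible because the table holds 1 value per group, and leaving out each replicate was not run for the same reason. Depth limits Gdnf, Ret and Fgf9 most, as the genes with the fewest fragments.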

Other observations

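Some other niche signals and a germ cell marker are given here, chosen after their values were seen. The chemokine gene Cxcl12 and its receptor gene Cxcr4, which also hold spermatogonial stem cells in place, lay on opposite sides of the control. Cxcl12 had 4.50 FPKM in Ptbp1_cKO and 3.41 FPKM in control (log2 fold change 0.40, q = 0.333 in the authors' deposited table), and Cxcr4 1.48 FPKM in Ptbp1_cKO and 2.34 FPKM in control (log2 fold change -0.66, unadjusted p = 0.00205 and q = 0.105 by the authors' deposited table). Bmp4, which promotes spermatogonial differentiation, had 1.96 FPKM in Ptbp1_cKO and 0.622 FPKM in control, a log2 fold change of 1.66, for which the authors' deposited table gave q = 0.576. Fshr, the receptor through which follicle-stimulating hormone raises Gdnf in Sertoli cells, had 1.07 FPKM in Ptbp1_cKO and 0.792 FPKM in control (q = 0.461 in the authors' deposited table). Eomes, a marker of a subset of primitive spermatogonia, had 0.124 FPKM in Ptbp1_cKO and 0.217 FPKM in control (log2 fold change -0.80, q = 0.238 in the authors' deposited table). It was 1 of 7 lower ones among the 17 tested markers of undifferentiated spermatogonia, of which 10 were higher in FPKM. None of these passed the threshold.

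Epididymal markers, from a tissue that adjoins the testis, were at or near 0 in control except Rnase10. In Ptbp1_cKO, Lcn5, Lcn8 and Pate4 were at or near 0, and Crisp1 and Adam7 stood above control. Crisp1, a secreted protein of the epididymis, had 5.90 FPKM in Ptbp1_cKO and 0.0482 FPKM in control (log2 fold change 6.94, q = 0.00848 in the authors' deposited table). Adam7 had 0.323 FPKM in Ptbp1_cKO and 0.00142 FPKM in control (q = 0.999 in the authors' deposited table). Lcn8 was listed at 0 in both groups, and Lcn5 had 0.0126 FPKM in Ptbp1_cKO and was listed at 0 in control. Rnase10 was at 1.98 FPKM in both groups. The part of epididymal tissue in the levels of the niche genes was not tested.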
